A study of Mus musculus with 10 samples.

Results

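The genes described here are 44 genes of transforming growth factor beta (TGF-beta), activin and bone morphogenetic protein (BMP) signalling, chosen by name from the 24525 gene symbols of an expression table of mouse colorectal tumours and adjacent colon tissue. They comprise 11 ligand or ligand subunit genes, the protease gene Bmp1, 11 receptor genes, 8 SMAD genes, 4 secreted antagonist genes, 4 latent TGF-beta binding protein genes and 5 target genes (4 Id genes and Tgfbi). All 44 were in the table, and 41 reached the mean of 1 FPKM over the 10 libraries that was required for a test; Tgfb2, Bmpr1b and Nog did not.

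RNA was sequenced from 5 tumours and 5 samples of adjacent tissue of male C57BL/6 mice (C57BL/6N in the growth protocol), all of which had received the mutagen azoxymethane (AOM) and, in the drinking water, the irritant dextran sulfate sodium (DSS), a damaging agent for the gut lining. The mice were 7 weeks old and received 12.5 mg/kg AOM by injection; 3 rounds of 3 weeks followed (2% DSS for 5 days, then plain water for 16), and colons were collected 10 weeks after the injection. The adjacent samples thus come from colon exposed to the same agents as the tumours, and no library of an untreated mouse was used. Since every library carries the same mouse in its source label, although the design text mentions mice in the plural, p-values cover only the spread among these samples, which may be technical.

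Ligands of this family are secreted dimers that bring together type I and type II receptor kinases, and the type I receptor then phosphorylates receptor SMADs. Smad2 and Smad3 carry the TGF-beta and activin signal, Smad1, Smad5 and Smad9 carry the BMP signal, and both sets enter the nucleus with Smad4. The inhibitory SMADs Smad6 and Smad7 act as feedback inhibitors, antagonists such as gremlin, noggin, chordin and follistatin bind ligands outside the cell, and latent binding proteins hold TGF-beta in the matrix. In the colon, BMP ligands are strongest towards the surface and their antagonists are made by stromal cells around the crypt base. Mutations of TGF-beta receptor and SMAD genes occur in colorectal cancer.

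Values are FPKM, fragment numbers scaled to transcript length and library total, which are per length and so allow levels of different genes to be compared. Library totals over all genes were 462009 to 484712 FPKM, with 11981 to 13171 genes at 1 FPKM or more, and the number of fragments behind them could not be settled. The first principal component held 80.1% of the variance, with adjacent samples at -70.7 to -39.6 and tumours at 28.1 to 68.3. Tumour 2, at 28.1, lay nearest to the adjacent samples. A change is the tumour minus the adjacent mean of log2(FPKM + 1), a scale that understates the change of low genes, and rose and fell are used of genes whose adjusted p in limma was under 0.05.

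Most of these genes were higher in tumours. Of 41 members tested, 30 (73.2%) rose, where 57.2% of all 13016 genes tested rose, and 5 (12.2%) fell, where 19.3% of all genes did. The 5 were Bmp2, Bmp3, Acvr1b, Smad4 and Id4. The median change of the members was 0.91, against 0.35 for all genes tested. That general shift depends on the scaling: with each library's median subtracted, 25 members (61.0%) rose and 7 (17.1%) fell, against 34.5% and 33.3% of all genes, and the medians were 0.58 and 0.02. Without tumour 2, 31 members rose and 5 fell, beside 7583 and 2609 of 12967 genes tested. All 5 tumours lay above all 5 adjacent samples for 28 members (68.3%) and below for 3 (7.32%), where the shares over all genes tested were 46.5% and 14.3%. Tgfb3, Smad9, Fst and Ltbp2 averaged under 1 FPKM in adjacent tissue and passed the filter through their tumour level, and Bmp3 passed it through its adjacent level, so the counts over tested members favour genes that differ. In bulk tissue, fewer cells of a type and less RNA per cell cannot be told apart.

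**Figure D1:**
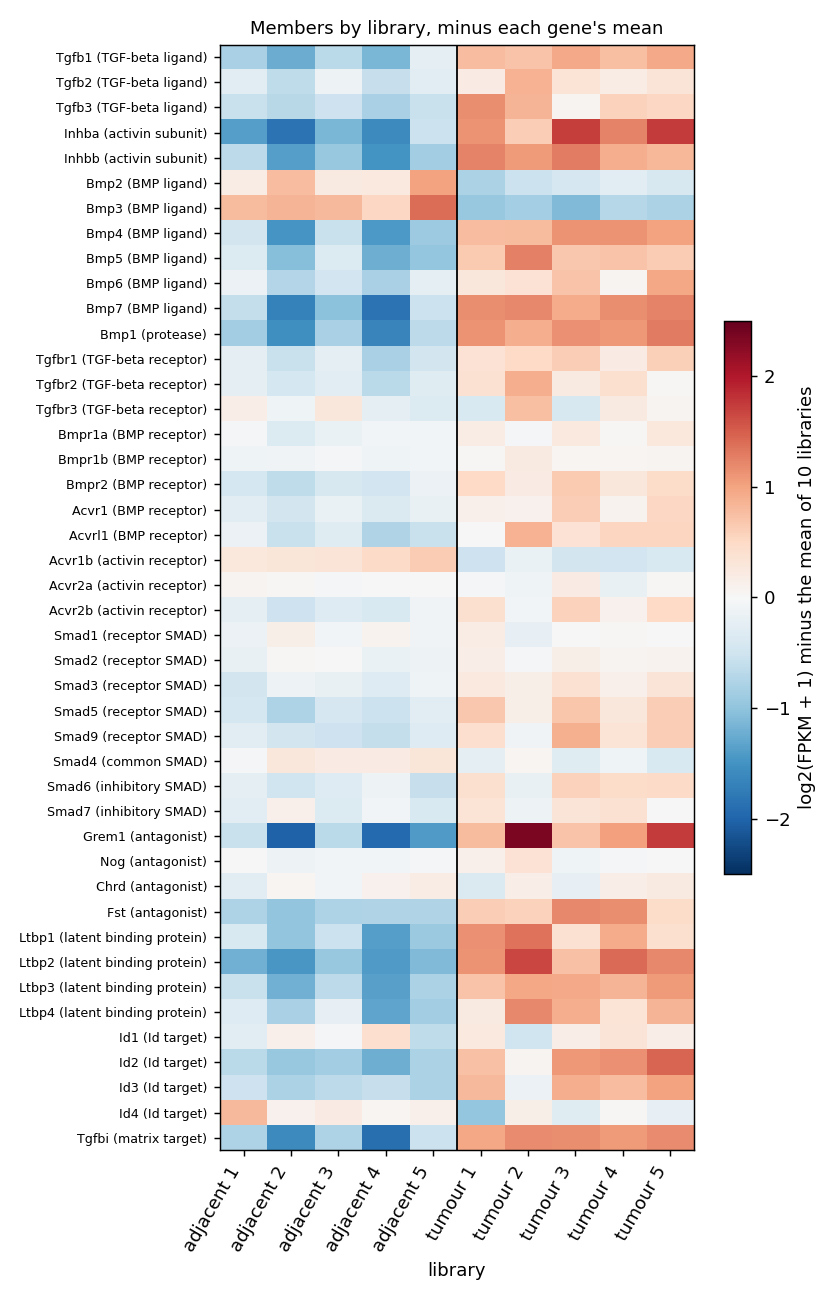
Heat map of log2(FPKM + 1) of each of the 44 genes (rows, with the role in brackets) in the 5 adjacent and 5 tumour libraries (columns), minus the gene's mean over the 10 libraries. Most rows are blue (lower) on the adjacent side and red (higher) on the tumour side; Bmp2, Bmp3 and Acvr1b run the other way, and the rows of Acvr2a, Smad1 and Smad2 are pale throughout.

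**Figure D2:**
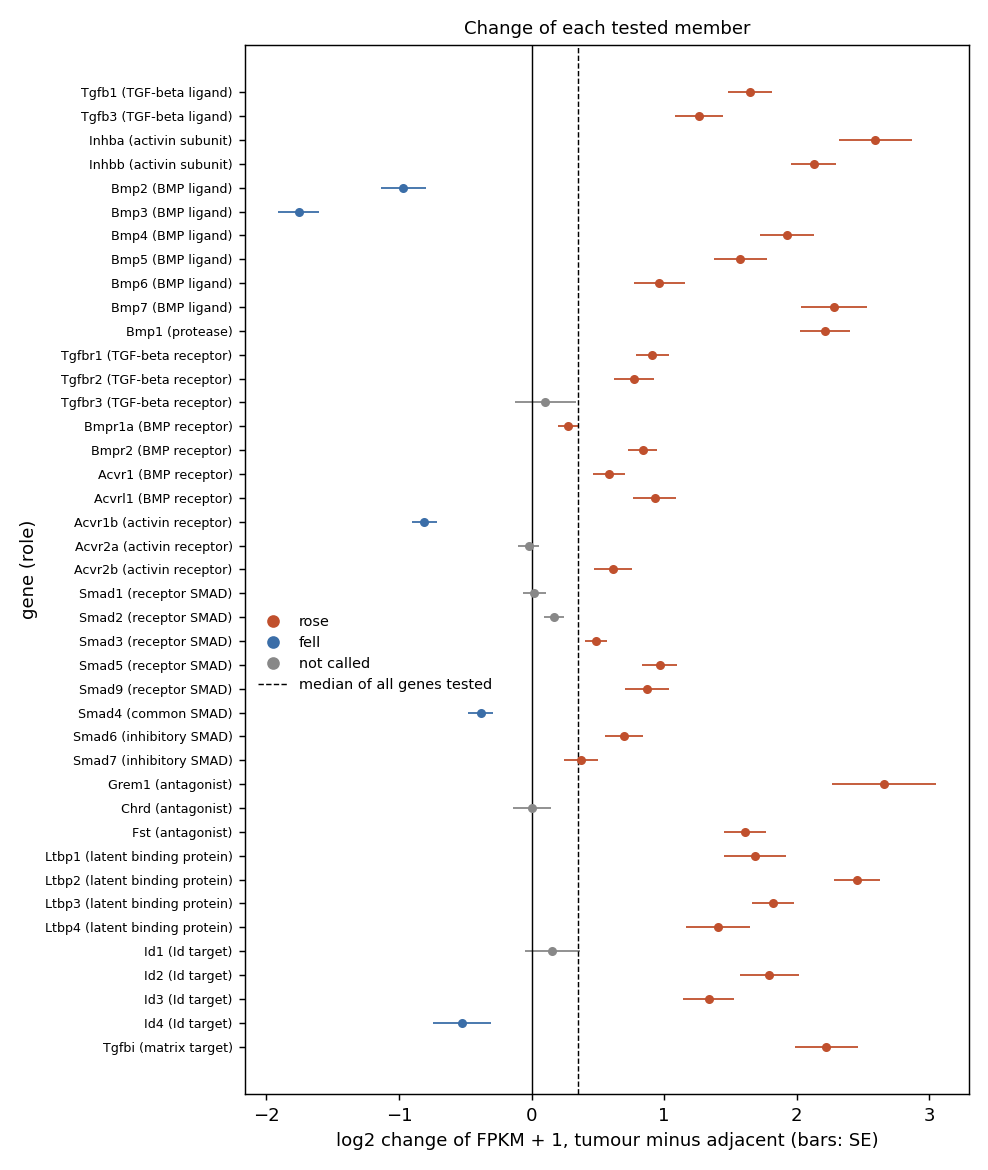
Change of each of the 41 tested genes (rows) as the tumour minus the adjacent mean of log2(FPKM + 1), with bars of 1 standard error (n = 5 per group) and the median of all genes tested, 0.35, as a dashed line. Grem1 lies farthest to the right, at 2.65, and Bmp3 farthest to the left, at -1.75, whereas the SMAD genes lie between -0.38 and 0.97.

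Sequences before the RefSeq start are shown for Grem1 and Inhba, which had the largest rises of the members on the log2(FPKM + 1) scale, and for the Id genes, of which Id2 and Id3 rose and Id4 was lower with a call that depended on the settings. They are RefSeq sequences on GRCm38.p6, 5′ to 3′ along the gene's strand, covering the 250 bases before the start that RefSeq annotates, and capitals mark matches of GC-rich motifs that BMP SMADs are known to bind. One motif is GGCGCC, which reads the same on both strands. The other motif searched for is GGAGCC, which appears as GGCTCC where the match is on the opposite strand. For Id2 and Id3, whose windows lie inside the gene as GENCODE vM21 annotates it and overlap an annotated UTR, 30 bases around each match are given.
Grem1 (chr2:113758649-113758898, minus strand): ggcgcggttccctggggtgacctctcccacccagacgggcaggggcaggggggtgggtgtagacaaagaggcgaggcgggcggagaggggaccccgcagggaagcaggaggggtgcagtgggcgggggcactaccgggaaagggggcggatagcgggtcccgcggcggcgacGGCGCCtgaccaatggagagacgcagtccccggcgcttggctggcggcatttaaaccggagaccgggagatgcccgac
Inhba (chr13:16011601-16011850, plus strand): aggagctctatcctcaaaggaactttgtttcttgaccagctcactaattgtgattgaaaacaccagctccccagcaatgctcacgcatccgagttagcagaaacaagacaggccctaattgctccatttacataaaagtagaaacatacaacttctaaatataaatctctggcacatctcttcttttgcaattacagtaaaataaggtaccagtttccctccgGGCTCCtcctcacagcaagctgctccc
Id4 (chr13:48260866-48261115, plus strand): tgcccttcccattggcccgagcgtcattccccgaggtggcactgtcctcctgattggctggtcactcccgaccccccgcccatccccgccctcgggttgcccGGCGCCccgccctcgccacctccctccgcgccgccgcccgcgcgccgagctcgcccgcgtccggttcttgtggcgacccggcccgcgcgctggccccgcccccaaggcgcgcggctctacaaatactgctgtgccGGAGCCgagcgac
Id2 (chr12:25096306-25096335, minus strand): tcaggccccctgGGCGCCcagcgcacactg
Id2 (chr12:25096163-25096192, minus strand): gtatgatggacgGGAGCCcttccaccaatg
Id3 (chr4:136143623-136143652, plus strand): cctcgcatccgaGGCTCCgctgtcctcggc

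The Grem1 window held GGCGCC once, 78 bases before the start, and the Inhba window held the reverse complement of GGAGCC, 27 bases before it. The Id2 and Id4 windows each held both motifs, in the orientation shown. The Id4 window was GC-rich (75.6% G or C) and that of Inhba was not (43.2%). A promoter was given for 31 of the 44 genes. Counting both strands, GGCGCC was in 11 of these (35.5%) and in 10.8% of 27025 gene symbols with windows of the same length. A gene was counted if any of its windows held the motif. Of the members that held GGCGCC, 9 rose and 1 fell. GGAGCC was in 17 of 31 (54.8%) and in 28.6% of all symbols, with 13 that rose and 2 that fell. Bmpr1b, among the 17, was not tested. Over all tested members 73.2% rose and 12.2% fell, and over all tested genes 57.2% and 19.3%. A link of the motifs to the changes was not tested. The median GC content of the windows was 64.9% for the 31 genes and 52.4% for all, and its part in the motif shares was not tested. GTCTAGAC, the palindromic SMAD motif, was in none of the 31 and in 0.2% of all; CTTTGAA, a TCF motif, was in none and in 5.19%; and TATAAA was in 3 (9.68%), Inhba among them, and in 14.3%.

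Of the 10 ligand genes tested, 8 (80.0%) rose and 2 (20.0%) fell, against 57.2% and 19.3% of all genes, with a median change of 1.61. With medians subtracted the same 8 rose and 2 fell, against 34.5% and 33.3% of all genes. The median change was then 1.28. The activin subunits, the TGF-beta ligands and Bmp4, Bmp5, Bmp6 and Bmp7 were higher in tumours, and Bmp2 and Bmp3 were lower.

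Inhba (chr13:16011851-16031621, plus strand, GRCm38) encodes the subunit of activin A and had the largest rise among the ligands. It was at 1.15, 0.56, 1.54, 0.85 and 2.87 FPKM in adjacent samples 1 to 5 and at 11.2, 7.61, 17.6, 12.2 and 17.9 FPKM in tumours 1 to 5. Every tumour lay above every adjacent sample, with tumour 2 the lowest tumour and adjacent sample 5 the highest adjacent sample. The means were 1.39 ± 0.901 and 13.3 ± 4.38 FPKM (SD, n = 5 per group), a ratio of 9.53, and the change was 2.59 (SE 0.28; limma adjusted p = 2.76e-05). Inhbb, the subunit of activin B, measured 2.04, 0.85, 1.49, 0.70 and 1.62 FPKM in the adjacent samples and 10.2, 9.05, 10.5, 7.97 and 7.5 FPKM in the tumours. The groups did not overlap, and the change was 2.13 (SE 0.17; limma adjusted p = 1.39e-05). The ratio of Inhba to Inhbb within a library was 0.564 to 1.77 in adjacent tissue and 0.841 to 2.38 in tumours, so the groups overlapped in the balance of the subunits.

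All 3 TGF-beta ligand genes were higher in every tumour than in any adjacent sample, as were 46.5% of all genes tested. Tgfb3 passed the filter through its tumour level. Tgfb1, the main TGF-beta of immune and stromal cells, was at 6.21, 4.33, 6.9, 4.77 and 9.73 FPKM in adjacent samples 1 to 5 and at 20.5, 19.8, 23.5, 20.2 and 23.3 FPKM in the tumours. The tumours spanned a narrow range, and the change was 1.65 (SE 0.17; limma adjusted p = 2.35e-05). Tgfb3 went from 0.68, 0.54, 0.73, 0.41 and 0.68 FPKM in adjacent tissue to 4.53, 3.48, 1.59, 2.68 and 2.54 FPKM in tumours, with tumour 1 the highest and tumour 3 the lowest of the tumours, a change of 1.26 (SE 0.18; limma adjusted p = 0.000117). Tgfb2 averaged 0.364 ± 0.203 FPKM in adjacent tissue and 1.33 ± 0.497 FPKM in tumours and was under the filter. Fitted without the filter its adjusted p in limma was 0.00129. In mean FPKM, Tgfb1 was the highest of the 3 in both groups.

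Among the BMP genes, Bmp7 (chr2:172868012-172940321, minus strand) rose most. Its levels were 7.94, 3.22, 5.69, 2.8 and 8.33 FPKM in adjacent samples 1 to 5 and 29.5, 30.4, 24.8, 29.5 and 31.2 FPKM in tumours 1 to 5. Adjacent samples 2 and 4 were lowest, the tumours lay close together, and the change was 2.28 (SE 0.25; limma adjusted p = 3.05e-05). Bmp4, a ligand made largely by colonic mesenchyme, gave 11.4, 5.13, 10.6, 5.29 and 8.07 FPKM in adjacent tissue and 28.1, 28.5, 35.8, 35.8 and 33.0 FPKM in tumours, a change of 1.92 (SE 0.20; limma adjusted p = 2.67e-05). Bmp5 gave 6.19, 3.32, 6.17, 2.92 and 3.65 FPKM in adjacent tissue and 13.3, 20.8, 13.6, 13.8 and 13.1 FPKM in tumours, a change of 1.57 (SE 0.20; limma adjusted p = 5.75e-05), and tumour 2 stood above the other tumours. In GENCODE vM21, 46.7% of the exon bases of Bmp5 are shared with the antisense gene Gm26903, and the library kit does not mark strand, so reads of the pair cannot be told apart. Bmp6 rose from 1.65 ± 0.539 to 4.21 ± 1.34 FPKM, by 0.96 (SE 0.19; limma adjusted p = 0.000981). It shares 5.74% of its exon bases with Txndc5, which averaged 177 FPKM.

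Bmp2, a BMP of the differentiated colonic surface, was lower in every tumour. It stood at 16.7, 25.4, 17.1, 17.2 and 29.9 FPKM in the adjacent samples, highest in samples 5 and 2, and at 7.91, 9.74, 10.6, 11.6 and 10.8 FPKM in the tumours. The mean ratio was 0.477 and the change -0.97 (SE 0.17; limma adjusted p = 0.000408; -1.30 with medians subtracted). Bmp3, an atypical member that counters other BMPs in bone, dropped from 4.6, 4.87, 4.66, 3.66 and 7.58 FPKM in adjacent tissue to 0.68, 0.80, 0.51, 0.98 and 0.88 FPKM in tumours. Even the lowest adjacent sample was well above the highest tumour, and the change was -1.75 (SE 0.16; limma adjusted p = 1.70e-05; -2.09 with medians subtracted). The sum of 6 surface colonocyte markers was 2881 to 4768 FPKM in adjacent tissue and 122 to 931 FPKM in tumours, and that of 6 goblet cell markers 12820 to 16750 and 694 to 2986 FPKM; all 6 of each list fell. The sum of 7 general epithelial markers, led by Krt8, was 6908 to 8510 FPKM in adjacent tissue and 3874 to 6036 FPKM in tumours, with 6 of the 7 fallen and 1 risen. Their part in the lower Bmp2 and Bmp3 was not tested.

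With Bmp4 up and Bmp2 down, the order of these ligands by FPKM differed between the groups. Bmp2 was the highest of the 11 ligand genes in all 5 adjacent samples, and Bmp4 or Bmp7 was the highest in each tumour. The ratio of Bmp2 to Bmp4 was 1.46 to 4.95 in adjacent tissue (median 3.26) and 0.281 to 0.342 in tumours (median 0.325). Adjacent samples 1 and 3 had the lowest adjacent ratios and still exceeded every tumour. Being formed within a library, the ratio does not depend on the library's scaling.

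**Figure D3:**
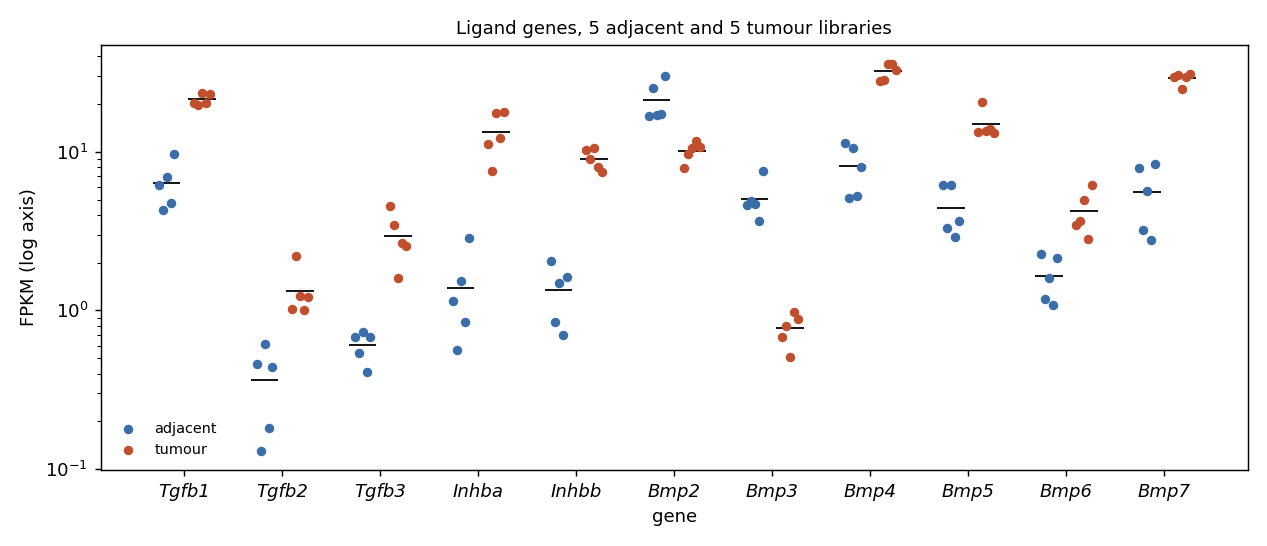
FPKM (log axis) of the 11 ligand genes in 5 adjacent (blue) and 5 tumour (red) libraries; each point is a library and the black line is the group mean. The groups do not overlap for any of the 11. Bmp2 and Bmp3 are lower in tumours, and the other 9 are higher. Over all genes tested, all tumours lay above all adjacent samples for 46.5% and below for 14.3%.

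Bmp1, which despite its name encodes a procollagen-processing protease and no ligand, was at 5.04, 2.82, 5.27, 2.53 and 6.0 FPKM in adjacent tissue and at 22.9, 19.7, 23.3, 22.3 and 26.3 FPKM in tumours. The lowest tumour was well above the highest adjacent sample, and the change was 2.21 (SE 0.19; limma adjusted p = 1.56e-05).

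The receptor genes moved less than the ligands. Of 10 tested, 7 (70.0%) rose, where 57.2% of all genes rose, and the median change was 0.60. Acvr1b fell (10.0%, against 19.3% of all genes), and Tgfbr3 and Acvr2a were not called. With medians subtracted, 4 (40.0%) rose, near the 34.5% of all genes, and 2 (20.0%) fell, against 33.3%. The median change was then 0.27. Acvr1b, a type I activin receptor, was the receptor that ran against the others: it was at 30.9, 31.4, 32.1, 36.0 and 40.3 FPKM in adjacent samples 1 to 5 and at 17.5, 22.5, 18.2, 17.9 and 19.3 FPKM in tumours 1 to 5. All tumours lay below all adjacent samples, tumour 2 being the highest tumour, and the change was -0.81 (SE 0.093; limma adjusted p = 3.76e-05; -1.14 with medians subtracted). The genes of the activin subunits were thus higher and that of this activin receptor lower in the same tumours.

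The TGF-beta receptor Tgfbr2, the type II receptor, averaged 33.5 ± 3.97 FPKM in adjacent tissue and 59.0 ± 14.6 FPKM in tumours, a change of 0.78 (SE 0.15; limma adjusted p = 0.000774; 0.44 with medians subtracted). Tgfbr1, the type I receptor, went from 8.3 ± 1.5 to 16.4 ± 2.01 FPKM, by 0.91 (SE 0.13; limma adjusted p = 8.94e-05). Both were higher in every tumour than in any adjacent sample, and tumour 2 had the highest Tgfbr2, at 83.5 FPKM. The co-receptor gene Tgfbr3, betaglycan, spanned 0.83 to 1.81 FPKM in adjacent tissue and 0.75 to 2.91 FPKM in tumours, and its change of 0.11 (SE 0.23; limma adjusted p = 0.68) turned negative with medians subtracted (-0.23) and, without tumour 2, to -0.07.

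Of the BMP receptors, the type II receptor Bmpr2 rose from 7.66 ± 1.09 to 14.5 ± 1.93 FPKM, by 0.84 (SE 0.11; limma adjusted p = 6.71e-05). Acvrl1, a receptor of endothelial cells, rose from 4.37 ± 0.888 to 9.3 ± 2.2 FPKM, by 0.93 (SE 0.16; limma adjusted p = 0.000403). The summed level of 6 endothelial markers, led by Pecam1, was 11.8 to 27.6 FPKM in adjacent tissue and 49.5 to 72.0 FPKM in tumours, and its part in the Acvrl1 change was not tested. Acvr1 rose by 0.58 (SE 0.12; limma adjusted p = 0.00113), and this was 0.25 with medians subtracted (adjusted p = 0.0535, limma). Bmpr1a, the main type I BMP receptor of the gut, was at 15.7 to 19.2 FPKM in adjacent tissue and 19.7 to 24.1 FPKM in tumours; its small rise of 0.28 (SE 0.081; limma adjusted p = 0.00908) became -0.05 with medians subtracted. Bmpr1b was near the lower end of the table, at 0.010 to 0.060 FPKM in adjacent tissue and 0.12 to 0.27 FPKM in tumours, and was not tested under the filter.

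Of the type II activin receptors, Acvr2b rose from 1.71 ± 0.311 to 3.19 ± 0.775 FPKM, by 0.61 (SE 0.14; limma adjusted p = 0.00259), but not with medians subtracted (0.28; limma adjusted p = 0.0657). Acvr2a spanned 6.44 to 7.1 FPKM in adjacent tissue and 5.82 to 7.91 FPKM in tumours, with a change of -0.02 (SE 0.082; limma adjusted p = 0.815). With medians subtracted Acvr2a was lower, at -0.35 (limma adjusted p = 0.00277).

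The SMAD genes had the smallest median change of the roles. Of 8, 5 rose, Smad4 fell and Smad1 and Smad2 were not called, at a median of 0.43; the share that rose, 62.5%, was near the 57.2% of all genes. With medians subtracted 3 rose (Smad5, Smad6 and Smad9; 37.5%, against 34.5% of all genes) and 2 fell, and the median was 0.10. All tumours lay above all adjacent samples for 3 of 8 (37.5%), under the 46.5% of all genes.

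Smad4, the common partner, was the most abundant SMAD gene in every library. Its levels were 45.7, 58.3, 54.8, 55.2 and 59.0 FPKM in adjacent samples 1 to 5 and 40.7, 49.3, 38.1, 43.8 and 36.3 FPKM in tumours 1 to 5. The groups overlapped, since tumour 2 was above adjacent sample 1, and the remaining tumours lay below all adjacent samples. The change was -0.38 (SE 0.097; limma adjusted p = 0.00409; -0.72 with medians subtracted).

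Among the receptor SMADs of the BMP branch, Smad5 rose from 12.1 ± 1.67 to 24.7 ± 4.21 FPKM, by 0.97 (SE 0.13; limma adjusted p = 7.67e-05), and Smad9 from 0.408 ± 0.131 to 1.63 ± 0.629 FPKM, by 0.87 (SE 0.17; limma adjusted p = 0.000736). Smad1 was at 20.1 to 25.0 FPKM in adjacent tissue and 19.4 to 25.5 FPKM in tumours, a change of 0.02 (SE 0.085; limma adjusted p = 0.821). With medians subtracted Smad1 fell, at -0.31 (limma adjusted p = 0.0178). Of the TGF-beta and activin branch, Smad3 rose by 0.49 (SE 0.084; limma adjusted p = 0.000372), with 13.4 to 17.2 FPKM in adjacent tissue and 20.5 to 24.8 FPKM in tumours, and was at 0.16 (limma adjusted p = 0.147) with medians subtracted. Smad2 was at 7.41 to 8.76 FPKM in adjacent tissue and 8.17 to 9.68 FPKM in tumours, a change of 0.17 (SE 0.074; limma adjusted p = 0.0573).

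Of the inhibitory SMADs, Smad6, which acts mainly on BMP signalling, rose from 8.64 ± 1.25 to 14.8 ± 2.89 FPKM, by 0.70 (SE 0.15; limma adjusted p = 0.00127). The groups overlapped through tumour 2, at 9.79 FPKM, which lay below adjacent sample 4, at 10.2 FPKM. Relative to Smad1 in the same library, Smad6 stood at 0.307 to 0.468 in adjacent tissue and 0.505 to 0.763 in tumours, with no overlap. This ratio depends on the partner chosen, since Smad1 was not called. Smad5 rose by 0.97, more than Smad6, so relative to Smad5 the mean level of Smad6 was not higher in tumours. Smad7, which inhibits both branches, rose by 0.37 (SE 0.13; limma adjusted p = 0.0215), with overlapping ranges of 15.3 to 22.1 FPKM in adjacent tissue and 18.4 to 26.6 FPKM in tumours. The Smad7 call did not hold with medians subtracted (0.04; limma adjusted p = 0.809) or without adjacent sample 3 or 5 or tumour 1, 3 or 4 (limma adjusted p up to 0.0528). The ratio of Smad7 to Smad3 overlapped between the groups.

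The secreted antagonists split by gene. Grem1 and Fst rose, Chrd was not called, and Nog was under the filter. Grem1 (chr2:113746164-113758646, minus strand), the BMP antagonist gremlin, was at 7.32, 2.01, 6.66, 2.19 and 3.58 FPKM in adjacent samples 1 to 5 and at 20.1, 62.1, 19.2, 24.1 and 40.0 FPKM in tumours 1 to 5. Its tumour levels were spread more widely than those of Bmp4, with tumours 2 and 5 the highest, and adjacent samples 2 and 4 were the lowest, as they were for Bmp4 and Bmp7. The means of 4.35 ± 2.5 and 33.1 ± 18.3 FPKM gave a ratio of 7.61, and the change of 2.65 (SE 0.39; limma adjusted p = 0.000154) was the largest of the members on this scale. Its rank depended on the scale and on tumour 2: by the ratio of means Ltbp2 (16.1) and Inhba (9.53) rose more, as they did with a pseudocount of 0.1 (log2 changes of 3.78 and 3.29, against 2.94 for Grem1), and without tumour 2 Grem1 was at 2.40 and Inhba at 2.76. Fst, follistatin, which binds activins, was at 1.04, 0.76, 1.05, 1.06 and 1.06 FPKM in adjacent tissue and at 4.3, 4.22, 7.01, 6.78 and 3.81 FPKM in tumours. The adjacent samples were close together and the tumours all higher, a change of 1.61 (SE 0.16; limma adjusted p = 2.13e-05). Chrd, chordin, spanned 1.17 to 1.97 FPKM in adjacent tissue and 1.04 to 2.05 FPKM in tumours, a change of 0.00 (SE 0.14; limma adjusted p = 0.992; -0.33 with medians subtracted). Nog, noggin, was at 0.26 to 0.37 FPKM in adjacent tissue and 0.29 to 0.77 FPKM in tumours.

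Each antagonist was also set against a ligand it binds in the same library. The ratio of Grem1 to Bmp4 was 0.392 to 0.641 in adjacent tissue and 0.536 to 2.18 in tumours, where tumour 3 alone lay within the adjacent range. The ratio of Chrd to Bmp4 was 0.103 to 0.340 in adjacent tissue and 0.0349 to 0.0681 in tumours, lower in every tumour. That of Nog to Bmp4 was likewise lower in every tumour, at 0.00809 to 0.0270 against 0.0294 to 0.0605. The direction of the Chrd and Nog ratios depends on the ligand chosen, since Bmp4 rose (1.92), Bmp2 fell (-0.97) and Chrd was level (0.00). Relative to Bmp2, the mean levels of Chrd and Nog were higher in tumours. The ratio of Fst to Inhba overlapped, at 0.369 to 1.36 in adjacent tissue and 0.213 to 0.557 in tumours. These ratios are of RNA and carry no test.

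**Figure D4:**
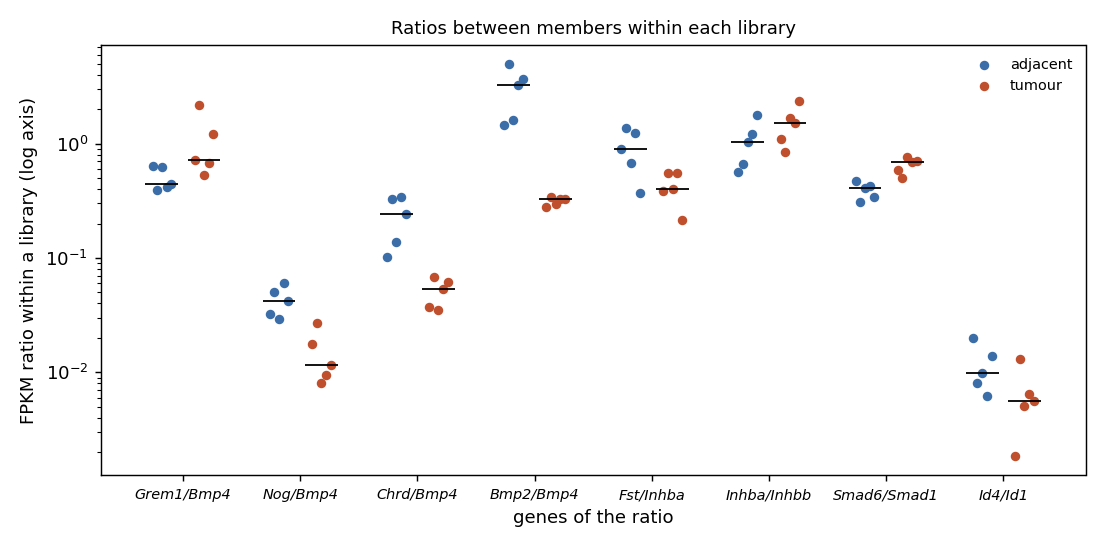
Ratios of FPKM between members within each library (log axis) in 5 adjacent (blue) and 5 tumour (red) libraries; black lines are group medians. Bmp2/Bmp4, Chrd/Bmp4 and Nog/Bmp4 are lower in every tumour and Smad6/Smad1 is higher, whereas the groups overlap for Grem1/Bmp4, Fst/Inhba, Inhba/Inhbb and Id4/Id1. Directions depend on the partner chosen: Bmp4 rose whereas Bmp2 fell, and Smad1 was not called whereas Smad5 rose.

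All 4 latent binding protein genes rose, where 57.2% of all genes did, with a median change of 1.75. With medians subtracted all 4 rose, against 34.5% of all genes, and the median change was 1.42. For each of the 4 all tumours lay above all adjacent samples, as for 46.5% of all genes tested. Ltbp2 passed the filter through its tumour level. Ltbp2 (chr12:84783212-84876532, minus strand), a matrix protein of this family that does not bind latent TGF-beta, went from 0.44, 0.21, 0.72, 0.25 and 0.55 FPKM in adjacent samples 1 to 5 to 6.23, 9.58, 4.49, 7.88 and 6.66 FPKM in tumours 1 to 5. Tumour 2 was the highest, and the change was 2.45 (SE 0.17; limma adjusted p = 9.63e-06). Ltbp1 was at 3.56, 2.03, 3.09, 1.31 and 2.13 FPKM in adjacent tissue and 12.2, 14.3, 6.8, 10.4 and 6.84 FPKM in tumours, a change of 1.69 (SE 0.24; limma adjusted p = 9.95e-05). Tumours 3 and 5 had the lowest tumour levels of Ltbp1. Ltbp3 was at 3.03, 1.57, 2.75, 1.3 and 2.4 FPKM in adjacent tissue and 8.61, 10.5, 10.4, 9.69 and 11.4 FPKM in tumours, a change of 1.82 (SE 0.16; limma adjusted p = 1.63e-05), with the tumours close together. Ltbp4 was the most abundant, at 16.8, 11.6, 18.3, 7.91 and 11.1 FPKM in adjacent tissue and 24.8, 50.0, 40.3, 27.1 and 38.8 FPKM in tumours, a change of 1.40 (SE 0.24; limma adjusted p = 0.000406), and was highest in tumour 2.

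Adjacent sample 4 was the lowest sample of its group for Ltbp1, Ltbp3 and Ltbp4. Its endothelial, macrophage, T cell and B and plasma cell marker sums were the lowest of that group, and its general epithelial sum the highest. Its smooth muscle and neutrophil sums were not the lowest. The summed level of 7 fibroblast markers, led by Col3a1, was also lowest there, at 65.1 FPKM, and at 76.5 FPKM in adjacent sample 2, against 130 to 168 FPKM in the other adjacent samples. In tumours this sum was 487 to 805 FPKM, highest in tumour 2, and 6 of the 7 markers rose. Smooth muscle markers, led by Acta2, summed to 33.1 to 87.4 FPKM in adjacent tissue and 103 to 161 FPKM in tumours, with 3 of 6 risen. Macrophage markers summed to 22.1 to 71.0 FPKM and 130 to 231 FPKM, and all 5 tested rose. The part of these cells in the changes of the ligand, antagonist and latent binding protein genes was not tested.

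The target genes also differed among themselves. Of 5, Id2, Id3 and Tgfbi rose, Id4 fell and Id1 was not called. These counts, 3 and 1 of 5, were near the 57.2% and 19.3% of all genes that rose and fell. With medians subtracted the same 3 rose and Id4 fell, against 34.5% and 33.3% of all genes. The Id proteins are helix-loop-helix proteins without a DNA-binding region that block other transcription factors, and their genes are widely used as readouts of BMP signalling. Id2 (chr12:25093799-25097140, minus strand) was at 20.1, 16.6, 17.6, 13.5 and 18.6 FPKM in adjacent samples 1 to 5 and at 55.2, 34.7, 70.3, 73.7 and 91.5 FPKM in tumours 1 to 5. Tumour 2 was the lowest tumour and still above the adjacent samples, and the change was 1.79 (SE 0.23; limma adjusted p = 6.04e-05). Id3 (chr4:136143497-136145755, plus strand) was at 97.0, 80.7, 88.1, 93.0 and 80.2 FPKM in adjacent tissue and 246, 126, 262, 239 and 281 FPKM in tumours, again with tumour 2 lowest, a change of 1.34 (SE 0.19; limma adjusted p = 0.00012). Without tumour 2 the changes were 2.00 for Id2 and 1.54 for Id3.

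Id1 (chr2:152736251-152737410, plus strand) had the highest mean FPKM of the 44 genes in both groups. It was at 227, 296, 267, 366 and 174 FPKM in adjacent samples 1 to 5 and at 323, 192, 306, 340.3 and 306 FPKM in tumours 1 to 5. The groups overlapped over most of their range, and the change of 0.16 (SE 0.21; limma adjusted p = 0.504) did not pass the test. Id4 (chr13:48261228-48266026, plus strand), the least abundant of the Id genes, was at 4.51, 2.39, 2.63, 2.26 and 2.41 FPKM in adjacent tissue and 0.60, 2.49, 1.54, 2.19 and 1.71 FPKM in tumours. Adjacent sample 1 was the highest and tumour 1 the lowest, the groups overlapped, and the change was -0.52 (SE 0.22; limma adjusted p = 0.0486; -0.85 with medians subtracted). This call held without tumour 2 or tumour 4 and in none of the other 8 fits that left out 1 library (limma adjusted p up to 0.115). It also did not hold without the filter (limma adjusted p = 0.0636) or with a pseudocount of 0.1 (limma adjusted p = 0.0572).

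**Figure D5:**
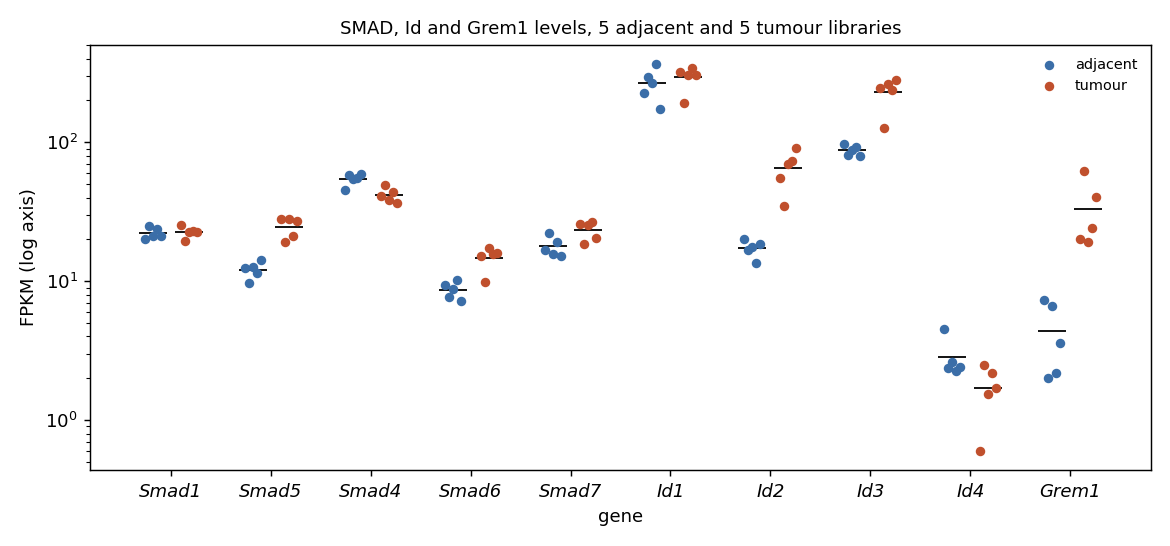
FPKM (log axis) of 5 SMAD genes, the 4 Id genes and Grem1 in 5 adjacent (blue) and 5 tumour (red) libraries; each point is a library and the black line is the group mean. Smad1 and Id1 overlap between the groups, Smad5, Id2, Id3 and Grem1 are higher in every tumour, and the lowest tumour points of Smad6, Id1, Id2 and Id3 are all tumour 2.

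Tgfbi (chr13:56609523-56639562, plus strand), a secreted matrix protein induced by TGF-beta, was at 22.8, 12.4, 22.9, 9.97 and 26.9 FPKM in adjacent tissue and at 78.1, 90.9, 90.1, 84.1 and 90.4 FPKM in tumours. The adjacent samples varied, with samples 2 and 4 lowest, while the tumours lay close together. The means were 19.0 ± 7.34 and 86.7 ± 5.55 FPKM, a change of 2.22 (SE 0.24; limma adjusted p = 3.04e-05).

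Tumour 2 was the highest tumour for 12 and the lowest for 15 of the 41 tested members (65.9% in all), close to its share over all genes tested, 69.0%. It was highest for Grem1, Tgfbr2, Bmp5, Ltbp2 and Ltbp4 and lowest for Id1, Id2, Id3, Smad5 and Smad6. The same library had the highest tumour sums of the fibroblast, endothelial, macrophage, T cell, B and plasma cell, general epithelial and surface colonocyte markers; the last was 931 FPKM there and 122 to 482 FPKM in the other tumours. Its goblet cell sum, 2878 FPKM, was second to that of tumour 4, and the part of these cells in its values was not tested. The sums of 5 lists overlapped between the groups. T cell markers summed to 7.21 to 12.9 FPKM in adjacent tissue and 10.6 to 30.3 FPKM in tumours (1 of 5 tested rose), and B and plasma cell markers to 119 to 406 FPKM and 29.7 to 488 FPKM (2 of 5 fell). Neutrophil markers summed to 102 to 340 FPKM and 163 to 424 FPKM, with 4 of 5 risen and 1 fallen. The gene that fell was Ly6g, the most abundant of them, at 91.6 to 262 FPKM in adjacent tissue and 11.0 to 60.1 FPKM in tumours. Their sum thus mixes opposite changes. Enteric glial and neuronal markers stayed at 0.53 to 1.27 FPKM in all libraries and none was tested, and adipocyte markers were at 0.11 to 3.52 FPKM, with Lep at 0 in every library.

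A further 76 genes of the same pathways were examined, of which 48 were tested and 28 were under the filter. Of the 48, 37 (77.1%) rose and 6 (12.5%) fell, against 57.2% and 19.3% of all genes, with a median change of 1.00. Bmper, Itgb8 and Hey1 passed the filter through their tumour level and Bmp8a through its adjacent level, so these counts also favour genes that differ. Without the filter, 42 of 74 rose and 8 fell, beside 8773 and 2935 of 19733 genes. With medians subtracted 29 (60.4%) rose and 9 (18.8%) fell, against 34.5% and 33.3% of all genes. Of 15 extracellular regulators, such as proteoglycans, follistatin-like proteins and integrins, 14 rose and Itgb6, an integrin subunit that activates latent TGF-beta, fell. The Itgb6 groups overlapped, and its limma adjusted p was 0.0416, with 0.0554 without the filter and 0.00942 with medians subtracted. All 7 further targets rose, 6 of them also with medians subtracted; the exception was Msx1, a homeobox gene. Of 16 intracellular regulators 13 rose and 2 fell, whereas 6 (37.5%, near the 34.5% of all genes) rose and 4 (25.0%) fell once medians were subtracted. Of the 5 further ligands tested 1 rose and 2 fell, and of the 5 further receptors and co-receptors 2 rose and 1 fell.

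Among the largest rises of these were those of Fstl1, a secreted follistatin-like glycoprotein, from 7.27 ± 2.57 to 47.1 ± 3.96 FPKM, by 2.60 (SE 0.20; limma adjusted p = 1.33e-05), and Ctgf. Ctgf, a matricellular protein induced by TGF-beta, went from 4.79 ± 1.59 to 28.0 ± 7.43 FPKM, by 2.33 (SE 0.22; limma adjusted p = 1.95e-05). The largest falls were in Bmp8a, a BMP ligand gene, from 3.56 ± 0.702 to 0.758 ± 0.591 FPKM (-1.42; SE 0.21; limma adjusted p = 0.000138), and in Lefty1, an inhibitor of nodal signalling, from 3.55 ± 0.717 to 1.04 ± 0.319 FPKM (-1.16; SE 0.15; limma adjusted p = 5.53e-05). Nedd4l, a ubiquitin ligase that targets activated SMADs, went from 11.4 ± 1.44 to 5.75 ± 0.143 FPKM (-0.86; SE 0.089; limma adjusted p = 2.36e-05). For all 5 genes the tumours did not overlap the adjacent samples, which their choice by size of change favours. Over all genes tested, all tumours lay above all adjacent samples for 46.5% and below for 14.3%.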

How the data were processed

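Polyadenylated RNA was sequenced with a kit that does not mark strand, per the labels' protocols. The deposited table gives FPKM per gene symbol as the authors computed them. The submitters' processing notes list RSEM 1.2.15, Cufflinks 2.2.1, Salmon 0.8.2 and TopHat2 2.1.0, with the build mm10; which of them made the table was not given in the sources used here. A line of text was left out. The members and lists were chosen with earlier results of these data known. Genes averaging 1 FPKM or more (13016) were fitted with limma 3.58.1 in R 4.3.3 on log2(FPKM + 1); the model had group alone, an intensity trend and robust moderation, and two-sided p-values were adjusted by Benjamini-Hochberg over all genes. The fit was tested on simulated data. All 44 members are accounted for by role. Values in every library are given for members that passed the test with a change of at least 1 in size or that ran against their role, and for Id1; of other pathway genes those with the 3 largest rises and falls are named, except for a gene that is not reported here. Alternatives were pseudocounts of 0.1 and 5, no filter or a mean of 5 FPKM, library medians subtracted, quantile normalization, a replicate block, limma without trend and robust moderation, and each library left out. The depth could not be settled from the steps between low values, so no counting interval is given. Apart from Bmp5, no member shared over 9.34% of its exon bases with any other gene. Promoters and motifs come from RefSeq on GRCm38.p6 and coordinates from GENCODE vM21. Protein measurements were not used here.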

Additional observations from a re-analysis of the deposited data

Results flagged for a closer look

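In each of the 44 genes the highest and lowest library of both groups were compared with the nearest of the others (Dixon's test). Of 88 groups, 9 (10.2%) stood out, where about 1 in 20 would if values were normal and groups independent. The groups share the same 10 libraries and the share over all genes was not computed, so no excess can be read from this. In 6 of the 9 the library was tumour 2. It was far above the other tumours for Bmp5, at 20.75 FPKM against 13.85 for the next, for Tgfb2, at 2.2 FPKM against 1.23, and for Bmpr1b, at 0.27 FPKM against 0.14. It was far below them for Id1, at 192.18 FPKM against 305.61, for Id3, at 126.31 FPKM against 238.72, and for Smad6, at 9.79 FPKM against 15.1. The remaining cases were Bmp7 in tumour 3, at 24.75 FPKM against 29.46 for the next tumour, Fst in adjacent sample 2, at 0.76 FPKM against 1.04, and Id4 in adjacent sample 1, at 4.51 FPKM against 2.63.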

How the results depend on the processing

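Of the 41 members tested, 29 kept their direction and their side of the threshold under every alternative that tested them; 7 changed when 1 library was left out. With library medians subtracted and with quantile normalization, all genes that rose numbered 4486 and 4759 and all genes that fell 4329 and 3934, against 7442 and 2509. Of the members, 8 fell with quantile normalization and 3 fell with a filter at a mean of 5 FPKM, which tested 31. Medians subtracted turned Bmpr1a to -0.052, Tgfbr3 to -0.23, Smad1 to -0.31, Smad2 to -0.16, Chrd to -0.33 and Id1 to -0.17; quantile normalization turned Tgfbr3 to -0.29, Smad1 to -0.18, Smad2 to -0.21 and Chrd to -0.45. With quantile normalization Smad2, Chrd and Acvr2a (-0.45) counted among the members that fell (limma adjusted p = 0.0296, 0.0229 and 0.000986). A pseudocount of 0.1 moved Chrd to -0.0068. With 1 library left out, changes ran from -0.07 to 0.22 for Tgfbr3, from -0.077 to 0.020 for Acvr2a, from -0.021 to 0.074 for Smad1 and from -0.064 to 0.090 for Chrd. Members that rose then numbered 28 to 31 and those that fell 4 or 5, beside 7051 to 7583 and 2321 to 2609 of all genes. Smad2 passed without adjacent sample 2 or tumour 2 (limma adjusted p = 0.0378 and 0.0251). Smad9 was under the filter without tumour 1, 3, 4 or 5.

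With a replicate block, 30 members rose and 4 fell, and Id4 lost its call (limma adjusted p = 0.127); all genes that rose numbered 7534 and all that fell 2533. Of the other pathway genes, Msx1 lost its call (limma adjusted p = 0.0905) and Rgma gained one (0.0491). The labels do not settle whether like-numbered samples share an animal. Their deviations correlated at 0.0231, 0.321, 0.0223, 0.161 and 0.422 for numbers 1 to 5, not over 0.1 in every pair, and not every sample correlated best with its own number. Levels near the lower end of the table (Tgfb2, Bmpr1b, Nog, Smad9) are limited by a depth that could not be settled.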
